A study of Homo sapiens with 12 samples.

Results

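The 10 genes described here are POSTN, TGFBI, TGM2, TNC, FN1, SPARC, MGP, DCN, LUM and CD248, grouped as non-collagen proteins of the extracellular matrix. They were chosen by symbol, and each had its own row among the 58735 genes of the deposited expression table. All 10 passed the filter on low values, a mean FPKM (fragments per kilobase of gene, scaled to sequencing depth) of at least 0.5. RNA was sequenced from 12 libraries of human neuroblastoma cells, a tumour of the sympathetic nervous system, in 4 groups of 3. The SK-N-SH knockdown libraries are labelled SK-N-SH with the genotype TSPYL5 knockdown, and the SK-N-SH control libraries are labelled SK-N-SH with the genotype WT. The SK_N_BE2 knockdown libraries have SK_N_BE2 in their titles, SH-SY5Y as their cell line and the genotype TSPYL5 knockdown, and the SK_N_BE2 control libraries carry the same line names with the genotype WT. Titles mark the knockdown with shL5 and the control with shNC, and every library has the treatment label None. The study asked what TSPYL5, which belongs to a family of histone-binding proteins, does to stem-cell properties of neuroblastoma. Nothing in the labels tells if the 3 libraries of a group came from different cultures, or if the knockdown cells were a single clone, so the p-values reflect library-to-library spread that may be technical.

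The extracellular matrix is the protein network that cells secrete around themselves and attach to through integrins and syndecans. Fibronectin assembles into fibrils on cell surfaces, collagens and microfibrils build on them, transglutaminases and lysyl oxidases cross-link the product, and matricellular proteins such as periostin, tenascin C and SPARC change how cells adhere to it. Several of these genes are textbook targets of TGF-beta signalling. In neuroblastoma, cells of the mesenchymal state are known for high matrix expression and cells of the noradrenergic state for low matrix expression. The grouping as secreted proteins is loose for a pair of members: CD248 (endosialin) is a transmembrane protein, and TGM2 (transglutaminase 2) is largely cytosolic and leaves the cell without a signal peptide.

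The labels were first set against TSPYL5 and MYCN. TSPYL5 was 17.1, 18.3 and 17.8 FPKM in SK-N-SH knockdown libraries, against 13.1, 13.4 and 12.2 FPKM in SK-N-SH control libraries. That is 1.38-fold higher in the libraries labelled knockdown, against the label (limma, adjusted p = 7.45e-06). In the SK_N_BE2 libraries TSPYL5 was 13.3, 12.4 and 12.6 FPKM with knockdown, against 24.0, 24.4 and 25.8 FPKM in control, 1.94-fold lower (limma, adjusted p = 9.86e-09). MYCN, the transcription factor gene amplified in a share of neuroblastomas, was between 988 and 1082 FPKM in SK-N-SH knockdown and between 1006 and 1072 FPKM in SK_N_BE2 control. It was 0 to 0.0813 FPKM in SK-N-SH control, and it had 0 reads in all 3 SK_N_BE2 knockdown libraries, where a total of 3 reads would come to 0.0218 FPKM. So SK-N-SH knockdown and SK_N_BE2 control were the MYCN-high libraries, and the other two groups had almost no MYCN. Over the 15856 genes tested, Pearson's r between a SK-N-SH knockdown and a SK_N_BE2 control library was 0.986 to 0.987, and between a SK_N_BE2 knockdown and a SK-N-SH control library 0.960 to 0.975. Between knockdown and control of the same line it was 0.705 to 0.724 in SK-N-SH and 0.692 to 0.721 in SK_N_BE2. By MYCN and by r, each knockdown group was thus paired with the control of the other line. TSPYL5 was 1.40-fold lower in SK-N-SH knockdown than in SK_N_BE2 control (limma, adjusted p = 0.000444) and was 12.8 FPKM in SK_N_BE2 knockdown and 12.9 FPKM in SK-N-SH control on average (limma, adjusted p = 0.880). An exchange of columns or labels between the lines cannot be told apart here from an effect of knockdown on MYCN and on everything that goes with it. With such an exchange, the folds given below within a line, and the difference of those folds, would set different cell lines against each other and would not measure the knockdown alone. The groups were kept as labelled, and every direction below rests on the labels.

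Depth was 15425460 to 19249018 reads per library, recovered from the FPKM values, and mitochondrial genes took 6.25 to 8.23% of reads. The 10 genes together took 0.0578 to 0.0647% of reads in SK-N-SH knockdown, against 1.89 to 2.31% in SK-N-SH control. In the SK_N_BE2 libraries they took 1.45 to 1.80% with knockdown, against 0.0451 to 0.0496% in control. In bulk RNA, fewer cells that express a gene and less of its RNA per cell cannot be told apart.

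Promoters are shown for members whose levels moved together across the groups. RefSeq promoter sequences, 250 bases before to 50 after the start on build GRCh38.p14, were at hand for 5 of the 10 members: POSTN, TGFBI, TNC, FN1 and SPARC. The 3 printed here are the gene with the widest range of levels (POSTN), the one with the most SP1 letters (FN1) and the one with the narrowest range of the 5 (SPARC). Each is 5′ to 3′ on the strand of the gene, with AP-1, TEAD, TATA box and SP1 letters in capitals, as read on either strand. POSTN is at chr13:37598719-37599018 on the minus strand, FN1 at chr2:215436019-215436318 on the minus strand and SPARC at chr5:151686866-151687165 on the minus strand.
POSTN: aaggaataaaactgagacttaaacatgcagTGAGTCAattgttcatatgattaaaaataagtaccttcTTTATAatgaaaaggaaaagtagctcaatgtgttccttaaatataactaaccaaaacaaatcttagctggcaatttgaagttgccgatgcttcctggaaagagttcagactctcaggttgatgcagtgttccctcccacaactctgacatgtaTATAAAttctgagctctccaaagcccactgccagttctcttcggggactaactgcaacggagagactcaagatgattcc
FN1: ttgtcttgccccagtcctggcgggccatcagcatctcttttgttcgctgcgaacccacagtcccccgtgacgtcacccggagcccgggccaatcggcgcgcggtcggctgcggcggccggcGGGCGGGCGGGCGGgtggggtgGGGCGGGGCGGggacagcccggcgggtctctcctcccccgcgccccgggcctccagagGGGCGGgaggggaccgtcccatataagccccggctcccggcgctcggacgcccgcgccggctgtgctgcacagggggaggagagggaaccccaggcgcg
SPARC: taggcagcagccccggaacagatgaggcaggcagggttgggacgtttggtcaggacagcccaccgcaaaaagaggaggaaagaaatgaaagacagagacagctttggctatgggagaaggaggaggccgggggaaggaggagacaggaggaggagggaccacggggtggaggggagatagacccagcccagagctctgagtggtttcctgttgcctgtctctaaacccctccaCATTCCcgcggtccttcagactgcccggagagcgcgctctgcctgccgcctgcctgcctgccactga

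Sets of letters were searched on both strands: AP-1 as TGANTCA, TEAD as GGAATG, SMAD as GTCTAGAC, the E-box as CANNTG, the TATA box as TATAAA and SP1 as GGGCGG. AP-1 letters occurred once among the 5 promoters, in POSTN, and are held by 7.73% of the 34796 distinct promoters in the RefSeq table. TATA box letters were also in POSTN alone, at 29 bases before the start on the gene's strand and again farther upstream on the other strand, and 11.6% of promoters hold them. TEAD letters were found in SPARC, just before the start and on the other strand, and are held by 14.0% of promoters. SP1 letters occurred 6 times in FN1, where neighbouring matches overlap, 4 times in TGFBI and 1 time in TNC, and 44.9% of promoters hold them. E-box letters occurred 2 times each in POSTN and TNC and 1 time in SPARC, and 68.7% of promoters hold them. In POSTN the first E-box match overlaps the AP-1 letters. SMAD letters, held by 0.193% of promoters, were in none of the 5. The GC content was 39% in POSTN, 61.3% in SPARC and 76.7% in FN1, and the median of the distinct promoters was 58.7%. No searched set occurred in all 5 promoters, and the letters are a description, not a site.

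Across the 4 groups the genes fell into 3 patterns. POSTN, TGFBI, TGM2, TNC, FN1 and SPARC were high in SK-N-SH control and SK_N_BE2 knockdown and low in the MYCN-high libraries. LUM, DCN and MGP were highest in SK-N-SH control alone. CD248 was highest in the MYCN-high libraries.

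**Figure D1:**
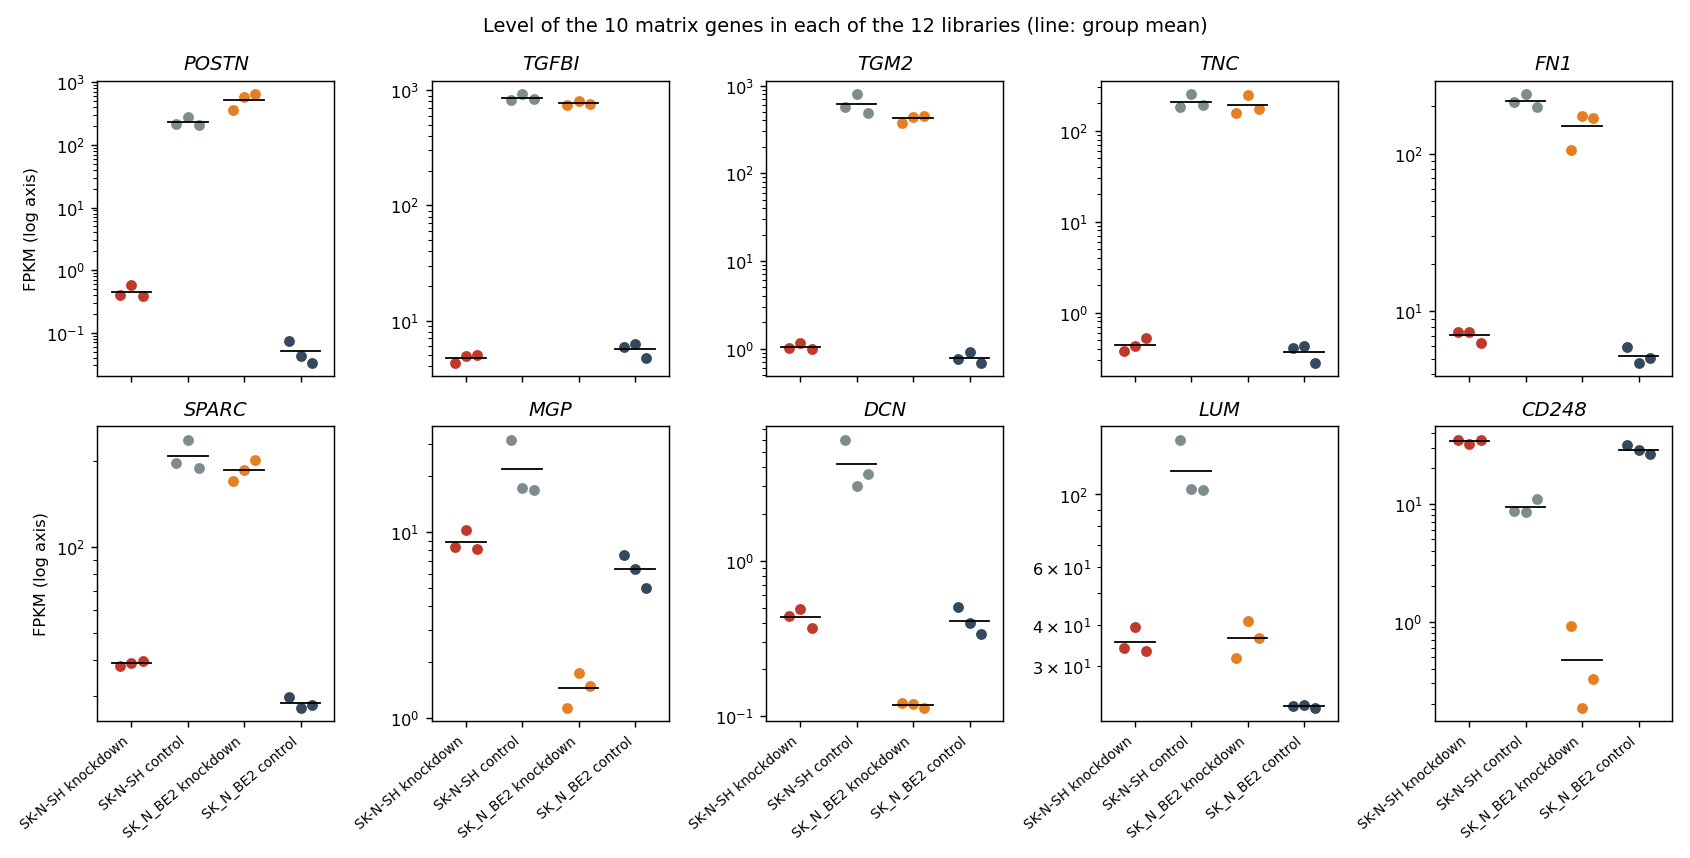
FPKM of each of the 10 genes on a log axis, with 3 points per group for the libraries and a line at the group mean. POSTN, TGFBI, TGM2, TNC, FN1 and SPARC sit high in SK-N-SH control and SK_N_BE2 knockdown, CD248 sits high in the other 2 groups, and MGP, DCN and LUM peak in SK-N-SH control.

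In SK-N-SH, 9 of the 10 genes were lower in knockdown than in control and 1, CD248, was higher (limma on log2(FPKM + 1), Benjamini-Hochberg adjusted p below 0.05). Of all genes tested, 39.0% were lower and 40.7% higher in that comparison. In SK_N_BE2, 7 were higher with knockdown and 2, CD248 and MGP, were lower, while DCN did not pass. There 39.9% of all genes tested were higher and 40.2% lower. Since most genes tested passed in each line, the calls are read against these shares, and the sizes are given below. Folds are ratios of mean FPKM, and log2 folds are those of the model on log2(FPKM + 1), which understates the change of low genes.

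POSTN encodes periostin, a matricellular protein with fasciclin domains that binds integrins and collagen fibrils. Its level was 0.405, 0.568 and 0.385 FPKM in SK-N-SH knockdown, against 216, 276 and 207 FPKM in SK-N-SH control. In SK_N_BE2 libraries it was 364, 587 and 641 FPKM with knockdown, against 0.0749, 0.0429 and 0.0331 FPKM in control, the last from 7, 4 and 3 reads. No pair of groups overlapped, and the highest library held 19348 times the level of the lowest. POSTN fell 515-fold in SK-N-SH knockdown (log2 fold -7.32, SE 0.18, limma adjusted p = 8.96e-12) and was 10548-fold higher in SK_N_BE2 knockdown (log2 fold 8.94, SE 0.18, limma adjusted p = 1.58e-12). The size of the second fold rests on 14 control reads, whose 95% exact Poisson interval runs from 0.0276 to 0.0847 FPKM and covers counting error only.

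TGFBI, a relative of periostin named for its induction by TGF-beta, had the highest level per length of the 10 genes in SK-N-SH control and SK_N_BE2 knockdown. It was 4.30, 4.97 and 5.03 FPKM in SK-N-SH knockdown, against 824, 920.3 and 836 FPKM in SK-N-SH control. With SK_N_BE2 knockdown it was 741, 811 and 768 FPKM, against 5.92, 6.31 and 4.71 FPKM in SK_N_BE2 control. The MYCN-high groups overlapped at about 5 FPKM, and both other groups stood far above them. TGFBI fell 180.5-fold in SK-N-SH knockdown (log2 fold -7.22, SE 0.09, limma adjusted p = 3.55e-14). It rose 137-fold in SK_N_BE2 knockdown (log2 fold 6.87, SE 0.09, limma adjusted p = 4.65e-14).

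TNC encodes tenascin C, a large glycoprotein of embryonic and wound matrix that weakens adhesion to fibronectin. Its level was 0.377, 0.429 and 0.522 FPKM in SK-N-SH knockdown, against 184, 250.4 and 194 FPKM in SK-N-SH control. In SK_N_BE2 it was 158, 249.6 and 175 FPKM with knockdown, against 0.407, 0.425 and 0.282 FPKM in control. The groups of each level overlapped with each other, so TNC separated the libraries into a high and a low set and no further. It was 472-fold lower in SK-N-SH knockdown (log2 fold -7.17, SE 0.16, limma adjusted p = 3.20e-12) and 522-fold higher in SK_N_BE2 knockdown (log2 fold 7.12, SE 0.16, limma adjusted p = 3.04e-12).

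FN1 encodes fibronectin, the dimeric glycoprotein that integrins pull into fibrils. Its level was 7.44, 7.41 and 6.34 FPKM in SK-N-SH knockdown, against 212, 238 and 199 FPKM in SK-N-SH control. In SK_N_BE2 it was 106, 174 and 168 FPKM with knockdown, against 5.94, 4.73 and 5.06 FPKM in control. FN1 was thus readily measured in every library, with at least 1398 reads in each. The fall in SK-N-SH knockdown was 30.6-fold (log2 fold -4.75, SE 0.16, limma adjusted p = 1.58e-10) and the rise in SK_N_BE2 knockdown 28.5-fold (log2 fold 4.56, SE 0.16, limma adjusted p = 2.01e-10).

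SPARC, or osteonectin, is a collagen-binding matricellular protein. It was 38.1, 39.3 and 39.7 FPKM in SK-N-SH knockdown, against 196, 237 and 189 FPKM in SK-N-SH control. With SK_N_BE2 knockdown it was 170.0, 185 and 202 FPKM, against 29.7, 27.2 and 27.9 FPKM in SK_N_BE2 control. SPARC kept a moderate level in the MYCN-high libraries and had the smallest folds of these 6 genes. It fell 5.31-fold in SK-N-SH knockdown (log2 fold -2.37, SE 0.08, limma adjusted p = 2.40e-10) and rose 6.57-fold in SK_N_BE2 knockdown (log2 fold 2.67, SE 0.08, limma adjusted p = 8.10e-11).

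TGM2 encodes transglutaminase 2, which cross-links fibronectin and other matrix proteins and also binds GTP inside the cell. Its level was 1.02, 1.16 and 0.983 FPKM in SK-N-SH knockdown, against 573, 791 and 492 FPKM in SK-N-SH control. In SK_N_BE2 it was 373, 440.5 and 449 FPKM with knockdown, against 0.757, 0.904 and 0.691 FPKM in control. It fell 587-fold in SK-N-SH knockdown (log2 fold -8.21, SE 0.14, limma adjusted p = 4.72e-13), the largest fall among the 10 genes, and rose 537-fold in SK_N_BE2 knockdown (log2 fold 7.88, SE 0.14, limma adjusted p = 6.40e-13). RPRD1B lies on the opposite strand over part of TGM2 and averaged 7.77 FPKM. Strand use in counting is not stated here, and reads of the pair cannot be told apart where they overlap. SPARC, TNC, CD248 and MGP also have an opposite-strand neighbour, each with a mean of at most 0.567 FPKM.

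LUM and DCN encode lumican and decorin, small leucine-rich proteoglycans that bind collagen fibrils and set their spacing. They are neighbours on chromosome 12, on the minus strand, 28652 bases apart on GRCh38. LUM was 34.1, 39.5 and 33.5 FPKM in SK-N-SH knockdown, against 147, 104 and 103 FPKM in SK-N-SH control. With SK_N_BE2 knockdown it was 31.9, 41.3 and 36.6 FPKM, against 22.7, 22.9 and 22.4 FPKM in SK_N_BE2 control. The SK-N-SH knockdown and SK_N_BE2 knockdown groups overlapped, and SK-N-SH control stood above all others. LUM fell 3.30-fold in SK-N-SH knockdown (log2 fold -1.68, SE 0.13, limma adjusted p = 2.34e-07) and rose 1.61-fold in SK_N_BE2 knockdown (log2 fold 0.66, SE 0.13, limma adjusted p = 0.000648).

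DCN was low throughout. It was 0.442, 0.492 and 0.367 FPKM in SK-N-SH knockdown, against 5.98, 3.04 and 3.61 FPKM in SK-N-SH control. With SK_N_BE2 knockdown it was 0.121, 0.120 and 0.113 FPKM, from 26 to 28 reads, against 0.501, 0.397 and 0.338 FPKM in SK_N_BE2 control, from 72 to 110 reads. Decorin therefore had its lowest level in SK_N_BE2 knockdown, one of the groups where POSTN and TGFBI were highest. DCN fell 9.71-fold in SK-N-SH knockdown (log2 fold -1.82, SE 0.16, limma adjusted p = 6.17e-07). In SK_N_BE2 the level with knockdown was 3.49-fold below control in non-overlapping libraries, and the difference did not pass on the log2(FPKM + 1) scale (log2 fold -0.34, SE 0.16, limma adjusted p = 0.0720). It passed with a pseudocount of 0.1 (log2 fold -1.22, limma adjusted p = 0.000527) and with limma and voom weights on the recovered reads (log2 fold -1.77, adjusted p = 0.00675).

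MGP encodes matrix Gla protein, a vitamin K-dependent inhibitor of calcification. Its level was 8.33, 10.3 and 8.14 FPKM in SK-N-SH knockdown, against 31.5, 17.3 and 16.8 FPKM in SK-N-SH control. In SK_N_BE2 it was 1.14, 1.75 and 1.501 FPKM with knockdown, against 7.58, 6.37 and 5.01 FPKM in control. MGP was lower with knockdown in both lines, in libraries that did not overlap. The fall was 2.45-fold in SK-N-SH (log2 fold -1.15, SE 0.22, limma adjusted p = 0.000396) and 4.32-fold in SK_N_BE2 (log2 fold -1.56, SE 0.22, limma adjusted p = 3.32e-05).

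CD248 is known as a marker of pericytes and activated fibroblasts and binds fibronectin. It was 34.9, 32.1 and 34.9 FPKM in SK-N-SH knockdown, against 8.64, 8.46 and 10.98 FPKM in SK-N-SH control. With SK_N_BE2 knockdown it was 0.911, 0.185 and 0.327 FPKM, from 42, 8 and 15 reads, against 31.3, 28.6 and 26.2 FPKM in SK_N_BE2 control. CD248 thus ran opposite to POSTN, TGFBI, TGM2, TNC, FN1 and SPARC in each line. CD248 rose 3.63-fold in SK-N-SH knockdown (log2 fold 1.76, SE 0.15, limma adjusted p = 6.34e-07) and fell 60.5-fold in SK_N_BE2 knockdown (log2 fold -4.36, SE 0.15, limma adjusted p = 1.98e-10). Replicate 1 sets the size of the second fold: without that SK_N_BE2 knockdown library it was 112-fold. Of 8 other markers of fibroblasts and pericytes that were tested, 7 were lower and 1 higher in SK-N-SH knockdown, and 5 were higher and 2 lower in SK_N_BE2 knockdown.

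**Figure D2:**
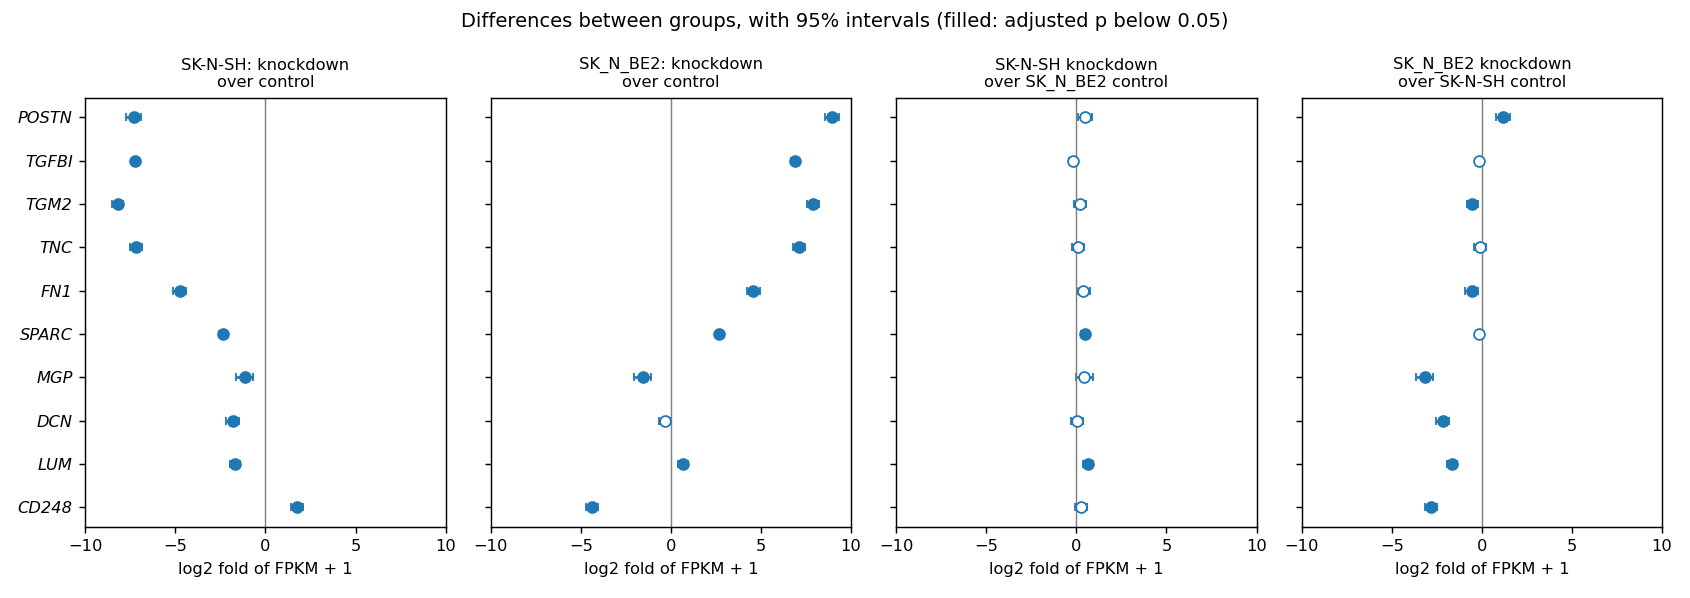
Log2 fold of FPKM + 1 for each of the 10 genes in 4 comparisons, with bars for 95% intervals of the limma model over all 12 libraries and filled points for an adjusted p below 0.05. POSTN runs from -7.32 in SK-N-SH to 8.94 in SK_N_BE2, MGP is below 0 in both, and most points lie near 0 between SK-N-SH knockdown and SK_N_BE2 control.

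The difference between the lines in the effect of knockdown was tested as an interaction, SK_N_BE2 effect minus SK-N-SH effect. It was positive for 8 of the 10 genes and negative for CD248, beside 41.8% positive and 43.1% negative among all genes tested. The differences on the log2 scale were 16.26 for POSTN, 16.09 for TGM2, 14.30 for TNC and 14.09 for TGFBI. They were 9.31 for FN1, 5.04 for SPARC, 2.34 for LUM and 1.49 for DCN, with limma adjusted p of at most 6.24e-05. CD248 had a difference of -6.12 (SE 0.22, limma adjusted p = 1.13e-10). MGP did not pass, at -0.41 with a 95% interval from -1.08 to 0.26 (limma adjusted p = 0.224). The MGP difference was -0.69 and passed without SK-N-SH control replicate 1 (limma adjusted p = 0.00879), and it was -0.81 and passed with a pseudocount of 0.1 (limma adjusted p = 0.0476). The interval over all libraries leaves room for a difference of more than 1 on the log2 scale, so the lines are not shown to act alike for MGP.

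The remaining comparisons set a knockdown group against the control of the other line, the pairing that MYCN and r gave, and they share their libraries with those above. Between SK-N-SH knockdown and SK_N_BE2 control, both MYCN-high, 2 of the 10 genes were higher in SK-N-SH knockdown, 0 were lower and 8 did not pass. Of all genes tested, 2.26% were higher and 3.12% lower there at an adjusted p below 0.05. At an unadjusted p below 0.05, 4 members were higher and 1 was lower. The share of all genes at that unadjusted threshold was not counted, so these counts have no background. With voom on the recovered reads 2 members were higher and 0 lower, beside 384 higher and 556 lower of 15856 genes tested. SPARC averaged 39.0 ± 0.836 FPKM in SK-N-SH knockdown and 28.3 ± 1.26 FPKM in SK_N_BE2 control (SD, n = 3 each), a log2 fold of 0.45 (SE 0.08, limma adjusted p = 0.0107). LUM averaged 35.7 ± 3.28 FPKM in SK-N-SH knockdown and 22.7 ± 0.264 FPKM in SK_N_BE2 control (SD, n = 3 each), a log2 fold of 0.63 (SE 0.13, limma adjusted p = 0.0184). The LUM call was lost when any of the SK_N_BE2 control libraries or SK-N-SH knockdown replicate 1 or 2 was left out, at limma adjusted p from 0.0510 to 0.0824.

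POSTN stood out among the 8 that did not pass. It was 8.998-fold above SK_N_BE2 control in SK-N-SH knockdown, with 33 to 54 reads per library against 3 to 7, and its log2 fold with a pseudocount of 1 was 0.47 (limma adjusted p = 0.184). With a pseudocount of 0.1 the log2 fold was 1.87 (limma adjusted p = 0.00110). FN1 was 1.35-fold higher in SK-N-SH knockdown without overlap and did not pass (log2 fold 0.37, 95% interval 0.01 to 0.73, limma adjusted p = 0.248). TGM2 was 1.34-fold, MGP 1.41-fold and CD248 1.18-fold higher in SK-N-SH knockdown, also without overlap. They did not pass (limma adjusted p = 0.508, 0.302 and 0.478). For TGFBI, TNC and DCN the libraries of these groups overlapped.

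Between SK_N_BE2 knockdown and SK-N-SH control, the libraries with almost no MYCN, 1 gene was higher, 6 were lower and 3 did not pass. Among all genes tested 26.9% were higher and 17.2% lower. With FPKM rescaled to total reads, higher genes made up 45.7% of those called, against 60.9% as deposited, and TGFBI and SPARC then also passed as lower (limma adjusted p = 0.0193 and 0.0161). POSTN averaged 531 ± 147 FPKM in SK_N_BE2 knockdown and 233 ± 37.8 FPKM in SK-N-SH control (SD, n = 3 each), 2.28-fold higher (log2 fold 1.15, SE 0.18, limma adjusted p = 0.000430). It was the only 1 of the 10 that was higher in SK_N_BE2 knockdown here.

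The members lower in SK_N_BE2 knockdown than in SK-N-SH control split by size. DCN was 35.7-fold, CD248 19.7-fold, MGP 15.0-fold and LUM 3.22-fold lower, with limma adjusted p of at most 7.91e-06. The CD248 fold was 36.5-fold without SK_N_BE2 knockdown replicate 1. TGM2 was 1.47-fold lower (log2 fold -0.53, SE 0.14, limma adjusted p = 0.0103) and FN1 1.45-fold lower (log2 fold -0.56, SE 0.16, limma adjusted p = 0.0159). Fitted on these 6 libraries alone, neither of these passed (limma adjusted p = 0.0819 for TGM2 and 0.0865 for FN1), and FN1 also did not pass without SK-N-SH control replicate 2 (limma adjusted p = 0.0560). TGFBI was 773 ± 35.1 FPKM in SK_N_BE2 knockdown and 860.2 ± 52.3 FPKM in SK-N-SH control (SD, n = 3 each), with a 95% interval of the log2 fold from -0.35 to 0.05.

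The make-up of the summed level of the 10 genes differed between groups, as did the amount. Levels of different genes are compared here per length, with the limit that the deposited gene length was 1 times (LUM, CD248) to 2.79 times (TGFBI) that of the longest protein-coding transcript. In SK-N-SH knockdown SPARC made up 28.9 to 30.6%, LUM 25.8 to 28.99% and CD248 23.6 to 26.9% of the summed FPKM of the 10 genes. In SK-N-SH control the same shares were 8.17 to 8.40% for SPARC, 3.65 to 6.12% for LUM and 0.297 to 0.488% for CD248. There TGFBI made up 32.4 to 37.1% and TGM2 21.9 to 27.8%. In SK_N_BE2 knockdown TGFBI made up 31.5 to 38.1% and POSTN 18.7 to 26.3%. In SK_N_BE2 control SPARC made up 27.8 to 30.1%, CD248 28.3 to 29.9% and LUM 21.6 to 24.2%. The share of FN1 was higher in SK-N-SH control than in any library of the other groups. It was between 4.88 and 5.75% in SK-N-SH knockdown, against 8.35 to 8.84% in SK-N-SH control, and 5.46 to 6.99% in SK_N_BE2 knockdown, against 4.83 to 5.66% in SK_N_BE2 control.

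**Figure D3:**
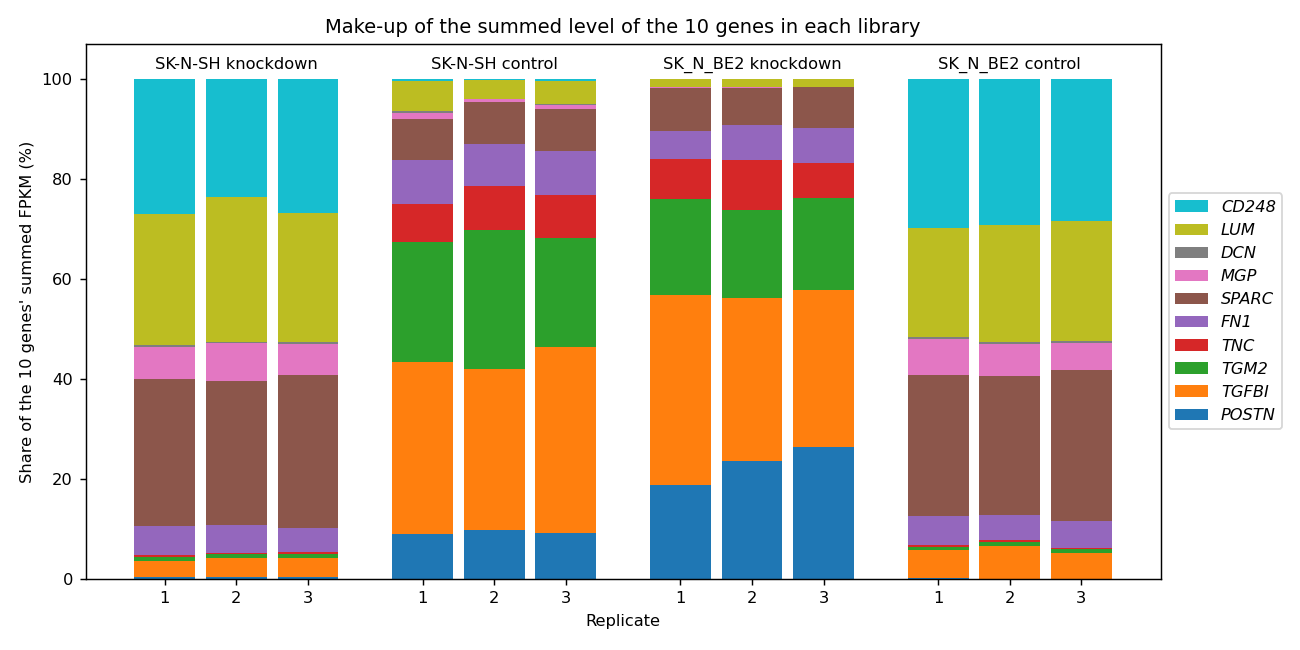
Share of the summed FPKM of the 10 genes held by each gene, as stacked bars for the 12 libraries in their 4 groups. SPARC, LUM and CD248 fill most of the bar in SK-N-SH knockdown and SK_N_BE2 control, and TGFBI, TGM2 and POSTN fill most of it in the other 2 groups.

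Libraries of 1 group also differed among themselves. In SK-N-SH control, replicate 2 was the highest for POSTN, TGFBI, TGM2, TNC, FN1 and SPARC, while replicate 1 was the highest for MGP, DCN and LUM. The highest of the 3 SK-N-SH control libraries exceeded the lowest by 1.97-fold for DCN, 1.87-fold for MGP and 1.43-fold for LUM. In SK_N_BE2 knockdown, replicate 1 was the lowest for 8 of the 10 genes and the highest for DCN and CD248. CD248 varied most there, with a highest library 4.92-fold above the lowest. SK-N-SH knockdown libraries varied little, from 1.04-fold for SPARC to 1.48-fold for POSTN.

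**Figure D4:**
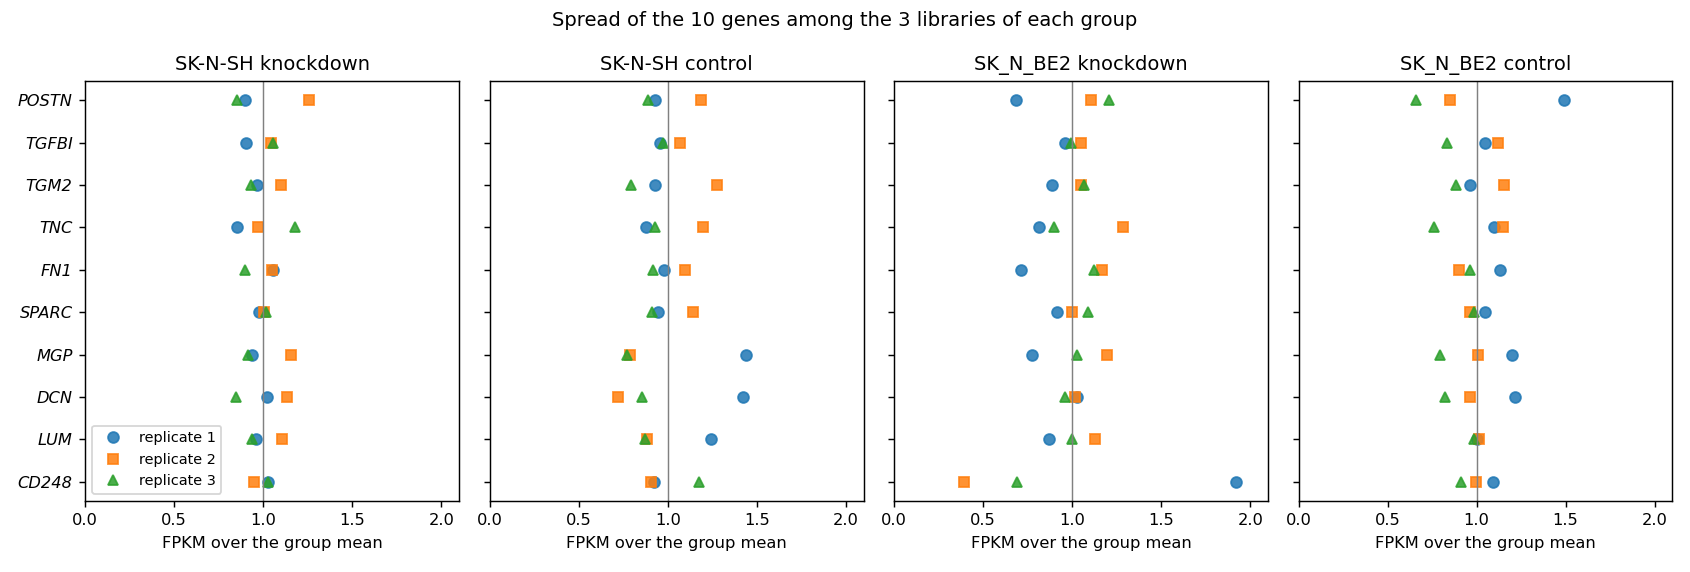
FPKM of each library over the mean of its group, for the 10 genes in the 4 groups, with 1 symbol per replicate number and a line at 1. In SK-N-SH control MGP, DCN and LUM are highest in replicate 1 and the 6 genes above them in replicate 2, and in SK_N_BE2 knockdown replicate 1 is low for 8 genes and high for CD248.

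The order of the group means followed these patterns. SK-N-SH control was the highest group for 8 genes, SK_N_BE2 knockdown for POSTN and SK-N-SH knockdown for CD248. SK_N_BE2 control was the lowest group for POSTN, TGM2, TNC, FN1, SPARC and LUM, SK-N-SH knockdown for TGFBI, and SK_N_BE2 knockdown for MGP, DCN and CD248. Neighbours in the order overlapped between the highest groups for TNC and SPARC, between the lowest for TGFBI and TNC, and in the middle for DCN and LUM. For POSTN, TGM2, FN1, MGP and CD248 all 4 groups stood apart. How many of all genes tested stand apart in this way was not counted, so this only describes the members.

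Other genes of the matrix were described by lists chosen with earlier results of these data known, so their direction is no independent evidence. Of 32 tested glycoproteins beyond the 10, 30 were lower and 1 higher in SK-N-SH knockdown, with a median log2 fold of -3.12 beside 0.02 over all genes tested. In SK_N_BE2 knockdown 28 were higher and 3 lower, with a median of 3.12 beside -0.02. FBN2, the microfibril protein fibrillin 2, was 0.00595 ± 0.00241 FPKM in SK-N-SH knockdown and 141 ± 26.7 FPKM in SK-N-SH control (SD, n = 3 each; limma adjusted p = 2.36e-13). It was 66.8 ± 4.69 FPKM in SK_N_BE2 knockdown and 0.0361 ± 0.0204 FPKM in SK_N_BE2 control (SD, n = 3 each; limma adjusted p = 8.66e-13). The low FBN2 levels rest on 4 reads in all of SK-N-SH knockdown and 24 in all of SK_N_BE2 control. CTHRC1, a secreted protein of remodelling tissue, was 110-fold lower in SK-N-SH knockdown (limma adjusted p = 1.48e-12). CTGF, a matricellular growth factor modulator, was 199.8-fold higher in SK_N_BE2 knockdown (limma adjusted p = 4.92e-09).

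Matrix cross-linking and modifying enzymes went the same way. Of 14 tested, 13 were lower and 1 higher in SK-N-SH knockdown (median log2 fold -1.60), and 13 were higher and 1 lower in SK_N_BE2 knockdown (median 1.70). LOXL1 and LOXL2, lysyl oxidases that cross-link elastin and collagen, averaged 1.22 and 6.83 FPKM in SK-N-SH knockdown, against 30.3 and 81.6 FPKM in SK-N-SH control. In SK_N_BE2 they averaged 33.4 and 108 FPKM with knockdown, against 0.950 and 4.12 FPKM in control, and all 4 differences passed (limma adjusted p of at most 3.11e-09).

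Proteoglycans were split. Of 12 tested, 5 were higher and 6 lower in SK-N-SH knockdown (median log2 fold -0.34), and 6 were higher and 5 lower in SK_N_BE2 knockdown (median 0.16). SPOCK1, a testican of neural tissue, was 23.5-fold higher in SK-N-SH knockdown (limma adjusted p = 6.95e-13) and 113-fold lower in SK_N_BE2 knockdown (limma adjusted p = 7.80e-14). ASPN (asporin), a relative of decorin, averaged 0.289 FPKM in SK-N-SH knockdown and 10.5 FPKM in SK-N-SH control (limma adjusted p = 1.84e-08). FMOD (fibromodulin), another relative, had 0 reads in SK_N_BE2 knockdown and 5.04 ± 0.428 FPKM in SK_N_BE2 control, at least 302-fold lower when set against 3 reads over the group (limma adjusted p = 3.10e-11).

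Receptors that bind these proteins also followed the main direction. Of 14 tested, 12 were lower and 2 higher in SK-N-SH knockdown (median log2 fold -1.74), and 12 were higher and 1 lower in SK_N_BE2 knockdown (median 2.08). ITGB5, an integrin subunit that binds periostin and vitronectin, was 80.0-fold lower in SK-N-SH knockdown and 76.7-fold higher in SK_N_BE2 knockdown (limma adjusted p of at most 4.82e-12). ITGA5, the fibronectin receptor subunit, was 56.9-fold lower in SK-N-SH knockdown (limma adjusted p = 1.16e-10), and SDC4, a syndecan that binds fibronectin and tenascin, was 33.0-fold higher in SK_N_BE2 knockdown (limma adjusted p = 2.16e-11).

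Of 11 tested TGF-beta ligands, receptors and SMADs, 9 were lower and 1 higher in SK-N-SH knockdown (median log2 fold -0.35), and 9 were higher and 1 lower in SK_N_BE2 knockdown (median 1.09). The ligand gene TGFB1 averaged 1.25 FPKM in SK-N-SH knockdown and 54.2 FPKM in SK-N-SH control. It averaged 54.5 FPKM in SK_N_BE2 knockdown and 1.30 FPKM in SK_N_BE2 control. The receptor gene TGFBR2 was 53.1-fold lower in SK-N-SH knockdown and 94.2-fold higher in SK_N_BE2 knockdown, and all 4 differences passed (limma adjusted p of at most 1.48e-12).

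Between SK-N-SH knockdown and SK_N_BE2 control, few genes of these lists passed. The numbers higher and lower were 1 and 2 of 32 glycoproteins and 0 and 3 of 12 proteoglycans. For the enzymes, receptors and TGF-beta genes limma called 0. At an unadjusted p below 0.05, 7 enzymes were higher and 2 lower, 4 receptors were higher and 1 lower, and 0 TGF-beta genes passed. For these unadjusted counts too, the share of all genes tested was not counted. With voom 4 enzymes were higher and 1 lower, and 0 receptors and 0 TGF-beta genes passed. Between SK_N_BE2 knockdown and SK-N-SH control, 4 glycoproteins were higher and 15 lower (median log2 fold -0.29), 1 proteoglycan was higher and 3 lower, and 2 enzymes were higher and 1 lower. There 6 receptors were higher and 5 lower, and 7 TGF-beta genes were higher and 1 lower.

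**Figure D5:**
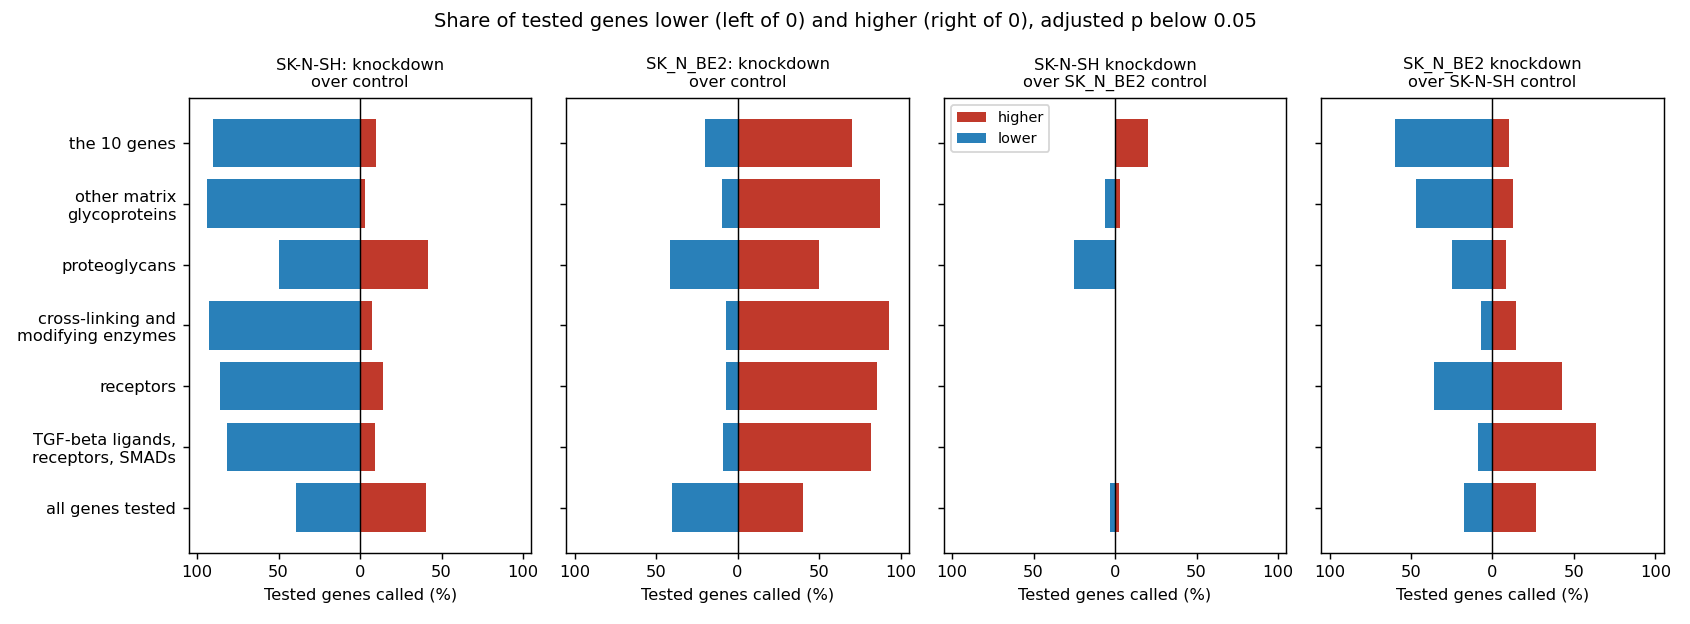
Share of tested genes called higher (red, right of 0) and lower (blue, left of 0) at an adjusted p below 0.05, for the 10 genes, 5 related lists and all genes tested, in 4 comparisons. Matrix glycoproteins, enzymes, receptors and TGF-beta genes lean lower in SK-N-SH knockdown and higher in SK_N_BE2 knockdown, and proteoglycans are split in both.

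Markers of cell states and other cell types were set beside the matrix genes, and their lists did not all run in the same direction. The summed level of 10 noradrenergic markers was 1926 to 2069 FPKM in SK-N-SH knockdown, against 82.4 to 95.003 FPKM in SK-N-SH control, and all 10 were higher. It was 70.6 to 86.5 FPKM in SK_N_BE2 knockdown, with TH and MYCN among those at 0 reads, against 2042 to 2117 FPKM in SK_N_BE2 control, and all 10 were lower. MYCN is 1 of these 10 and carried much of the high sums, with 1028 FPKM on average in SK-N-SH knockdown and 1040 FPKM in SK_N_BE2 control. Since MYCN had already named the MYCN-high groups, its part in these sums and calls is no separate result. Of 9 tested mesenchymal markers, 7 were lower and 1 higher in SK-N-SH knockdown, and 8 were higher and 1 lower in SK_N_BE2 knockdown. PRRX1, a mesenchymal transcription factor, averaged 0.0693 FPKM in SK-N-SH knockdown and 137 FPKM in SK-N-SH control, and AXL, a receptor kinase, 0.333 and 61.1 FPKM in the same groups. In SK_N_BE2 PRRX1 averaged 152 FPKM with knockdown and 0.0501 FPKM in control, and AXL 46.4 and 0.226 FPKM in the same groups.

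The sum of 10 fibroblast and pericyte markers was 74.3 to 77.03 FPKM in SK-N-SH knockdown, against 1333 to 1653 FPKM in SK-N-SH control, and 7 of 8 tested were lower and 1 higher. In SK_N_BE2 it was 815 to 978 FPKM with knockdown, against 66.9 to 72.3 FPKM in control, and 5 of 8 were higher and 2 lower. COL1A1 and COL3A1, collagens that mesenchymal neuroblastoma cells also express, made up most of the high sums, with 810 and 519.8 FPKM on average in SK-N-SH control. The pericyte channel genes KCNJ8 and ABCC9 were at 0 reads in SK_N_BE2 knockdown, and ABCC9 in SK-N-SH control. Both had reads in the MYCN-high groups. KCNJ8 averaged 17.0 FPKM in SK-N-SH knockdown and 14.9 FPKM in SK_N_BE2 control, and ABCC9 0.681 and 0.385 FPKM in the same groups. Of 4 tested epithelial markers, 3 were lower and 1 higher in SK-N-SH knockdown, and 3 were higher and 1 lower in SK_N_BE2 knockdown. Their sums were 1.36 to 1.67 FPKM in SK-N-SH knockdown against 21.7 to 26.4 FPKM in SK-N-SH control, and 25.02 to 30.99 FPKM in SK_N_BE2 knockdown against 1.36 to 2.08 FPKM in SK_N_BE2 control. KRT18 and KRT8, keratins of simple epithelia, carried most of the high sums, with 17.3 and 4.13 FPKM in SK-N-SH control. EPCAM, another of these markers, ran the other way. It averaged 0.704 FPKM in SK-N-SH knockdown and 0.296 FPKM in SK-N-SH control, and 0.337 FPKM in SK_N_BE2 knockdown and 0.814 FPKM in SK_N_BE2 control.

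Schwann cell markers summed to 5.92 to 6.39 FPKM in SK-N-SH knockdown against 1.59 to 2.38 FPKM in SK-N-SH control, and to 1.47 to 1.79 FPKM in SK_N_BE2 knockdown against 5.64 to 7.48 FPKM in SK_N_BE2 control. CDH19 and FOXD3 were at 0 reads in all 12 libraries, and NGFR, the low-affinity neurotrophin receptor, was higher in SK-N-SH knockdown and lower in SK_N_BE2 knockdown. Blood and endothelial markers summed to at most 1.68 FPKM in any library, and none passed the filter on low values, so none was tested. Their sums were at least 1.41 FPKM in SK-N-SH knockdown and 1.05 FPKM in SK_N_BE2 control. They were at most 0.236 FPKM in SK-N-SH control and 0.268 FPKM in SK_N_BE2 knockdown. PTPRC, 1 of these markers, averaged 1.22 and 0.711 FPKM in SK-N-SH knockdown and SK_N_BE2 control, against 0.0291 and 0.0310 FPKM in SK-N-SH control and SK_N_BE2 knockdown. The part of other cells in the matrix levels was not tested.

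Over the 12 libraries, each member had a gene outside the set whose log2(FPKM + 1) followed it most closely by Pearson's r. The libraries fall into groups that differ greatly, so r mostly restates the group means and is given with no test. For POSTN it was SLC16A3, a lactate transporter (r = 0.999), for TGFBI TMSB4X, a thymosin that binds actin (r = 0.999), and for TGM2 MSRB3, a methionine sulfoxide reductase (r = 0.999). TNC was closest to PNPLA4, a lipase family gene (r = 0.9996), FN1 to the collagen COL3A1 (r = 0.999) and SPARC to FSTL1, a secreted relative of SPARC (r = 0.998). CD248 was closest to EIF4B, a translation initiation factor (r = 0.995), DCN to SULT1B1, a sulfotransferase (r = 0.989), LUM to BNIP3L, a mitophagy receptor (r = 0.973), and MGP to PDGFRB, the pericyte receptor kinase (r = 0.971). PDGFRB averaged 18.7 FPKM in SK-N-SH knockdown and 32.7 FPKM in SK-N-SH control, and 9.15 FPKM in SK_N_BE2 knockdown and 14.5 FPKM in SK_N_BE2 control.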

How the data were processed

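A NEBNext Ultra kit and an input of 3 µg of RNA were used for each library, per the labels' protocols. The submitters' processing notes name the tools HISAT2 (2.0.5) and, also, featureCounts (1.5.0-p3). The build in those notes is mm10, but all 58735 genes of the table have the human coordinates of GENCODE 29 on GRCh38, which are used here. The authors deposited FPKM per gene and library, with gene length in bases as another column. FPKM times length was a whole multiple of a step for 100% of the values checked (tolerance 0.05 reads), which gave whole reads. The scaling was in proportion to median-of-ratios size factors, at 0.912 to 1.06 times that of library totals.

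The deposited FPKM was analysed as log2(FPKM + 1) in limma 3.58.1 (R 4.3.3), with 1 model of 4 group means over 12 libraries, an intensity trend, and two-sided p-values adjusted by Benjamini-Hochberg over 15856 genes, with a threshold of 0.05. The fit was tested on simulated data. There few genes were changed, and the added spread was smaller than that of members such as MGP in SK-N-SH control. That test therefore does not cover data in which most genes differ. The members, the gene lists and the alternatives were chosen with earlier results of these data known. All 10 members are named in each comparison, with up to 2 called genes of the largest log2 fold per list and line, the most alike gene per member, TSPYL5 and MYCN. Some genes that this rule takes are left unreported. RGS5 had 2 rows and was left out. Intervals and floors of 3 reads cover counting error only.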

Additional observations from a re-analysis of the deposited data

Results flagged for a closer look

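The knockdown effect differed between SK_N_BE2 and SK-N-SH, by the interaction test in limma, for 9 of the 10 genes. Among all genes tested the difference passed as positive for 41.8% and as negative for 43.1%, so the count alone does not set these genes apart. The differences of the log2 folds, SK_N_BE2 minus SK-N-SH, were 16.26 for POSTN, 14.09 for TGFBI, 16.09 for TGM2, 14.30 for TNC, 9.31 for FN1 and 5.04 for SPARC. They were 1.49 for DCN, 2.34 for LUM and -6.12 for CD248. TSPYL5 was higher in the SK-N-SH libraries labelled knockdown than in their controls, and MYCN was high in SK-N-SH knockdown and SK_N_BE2 control, so the differences cannot be told apart from what else separates these libraries, or from an exchange of columns or labels between the lines.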

How the results depend on the processing

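Of 695 values of member log2 folds under alternatives, 678 kept their side of the threshold, 8 lost the call and 9 gained it. Among folds called in the main fit or under the alternative, 0 changed direction. Folds called in neither could change sign. TNC between SK_N_BE2 knockdown and SK-N-SH control ran from -0.319 to 0.0115 under the alternatives. DCN between SK-N-SH knockdown and SK_N_BE2 control ran from -0.0150 to 0.0871. With a replicate block, 10, 9, 2, 7 and 9 members were called in SK-N-SH, in SK_N_BE2, between SK-N-SH knockdown and SK_N_BE2 control, between SK_N_BE2 knockdown and SK-N-SH control and in the interaction, as without it. Deviations of same-numbered libraries from their group means had r from -0.075 to 0.102. Libraries with different numbers were not compared in this way, so these values do not settle if the shared numbers pair the libraries. Leaving out each replicate between SK-N-SH knockdown and SK_N_BE2 control gave 1 to 2 members called, since LUM lost its call, and 474 to 638 genes called over all genes tested, against 854 with all libraries kept. Without any 1 of these libraries other than SK-N-SH knockdown replicate 3, the count was at most 527. The MGP interaction of -0.41 was -0.88 with voom and did not pass (adjusted p = 0.0726), and it passed at -0.81 with a pseudocount of 0.1 (limma adjusted p = 0.0476) and at -0.69 without SK-N-SH control replicate 1 (limma adjusted p = 0.00879). DCN in SK_N_BE2 (limma adjusted p = 0.0102) and POSTN between SK-N-SH knockdown and SK_N_BE2 control (limma adjusted p = 0.0137) passed when only the compared groups were fitted. The cause was not tested. A minimum mean FPKM of 2 dropped DCN. Rescaling to total reads moved the median log2 fold of all genes in SK_N_BE2 to -0.13, against -0.02 as deposited. Depth limits POSTN in SK_N_BE2 control and CD248 and DCN in SK_N_BE2 knockdown, and FBN2 in SK-N-SH knockdown and SK_N_BE2 control.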
